A study of Mus musculus with 24 samples.

Results

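The 9 genes described here encode receptors through which liver cells read hormones and growth factors. They are Prlr, Lifr, Egfr, Met, Insr, Gcgr, Fgfr4, Il6ra and Ptger3, out of 22342 protein-coding genes on the autosomes and X of mm9. They were chosen by name, with earlier results of these data known. Every H3K27ac peak that overlapped the gene body or 10 kb on either side was assigned to the gene. Overlapping peaks of the 4 peak lists were joined into regions, which gave 217 receptor regions of 119348 in all. H3K27ac, the acetylation of lysine 27 on histone H3, marks active promoters and enhancers.

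Livers came from mice 8 weeks of age of an inbred laboratory strain, C57BL/6J (B6), and of the wild-derived strain CAST/EiJ (CAST), with 5 male B6, 5 female B6, 5 male CAST and 5 female CAST livers and 1 input control per group. The labels name no transgene and no treatment for any group. Each group is represented by a single peak list made from its 5 livers pooled, so no value below has a replicate spread, no difference could be tested, and differences are given as descriptions beside the share of all genes or regions that differed as much. In the strain field of the labels all females are CAST and all males B6, which contradicts 2 of the 4 group titles, and the titles, the names of the lists and the study's methods were followed here.

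The lists held 79818 peaks and 82176 in male and female B6 and 90228 and 84645 in male and female CAST on these chromosomes, with median widths of 578 to 680 bp. Depth per liver was not analysed here. Peaks within 1 kb of a start were present at 7 of 8 hepatocyte markers in both B6 lists and 8 of 8 in both CAST lists, at 3 of 4 endothelial markers and 2 of 3 biliary markers in every list, at 0 to 2 of 4 Kupffer cell and leukocyte markers, at 0 or 1 of 4 stellate cell markers and at 0 of 4 markers of other tissues. In whole liver, fewer cells of a type and less acetylation per cell cannot be told apart.

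Liver parenchymal cells respond to these receptors in different ways. Insulin signals through the receptor tyrosine kinase encoded by Insr, and glucagon opposes it through the G protein-coupled receptor encoded by Gcgr. Hepatocyte growth factor acts through Met and epidermal growth factor through Egfr, both of which drive growth of the liver after injury. Fgfr4 transmits the intestinal FGF signal that restrains bile acid synthesis. Il6ra and Lifr belong to cytokine receptors that work through JAK kinases and STAT3 and raise acute-phase proteins. Prolactin binds Prlr and signals through STAT5. Ptger3 encodes the EP3 receptor for prostaglandin E2, a G protein-coupled receptor.

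Together the receptor windows contained 160 to 167 peaks in each list. These peaks covered 127 kb in B6 males and 118 kb in B6 females, and 124 kb and 110 kb in CAST males and females. Most of the coverage was distal, meaning over 2.5 kb from any protein-coding start, and the distal share of covered bases lay between 72.0% in CAST females and 74.1% in CAST males. Of the 217 regions, 184 were distal, 30 lay at a start of the receptor gene itself and 3 at a start of a neighbouring gene. Introns held 150 of them (69.1%).

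**Figure D1:**
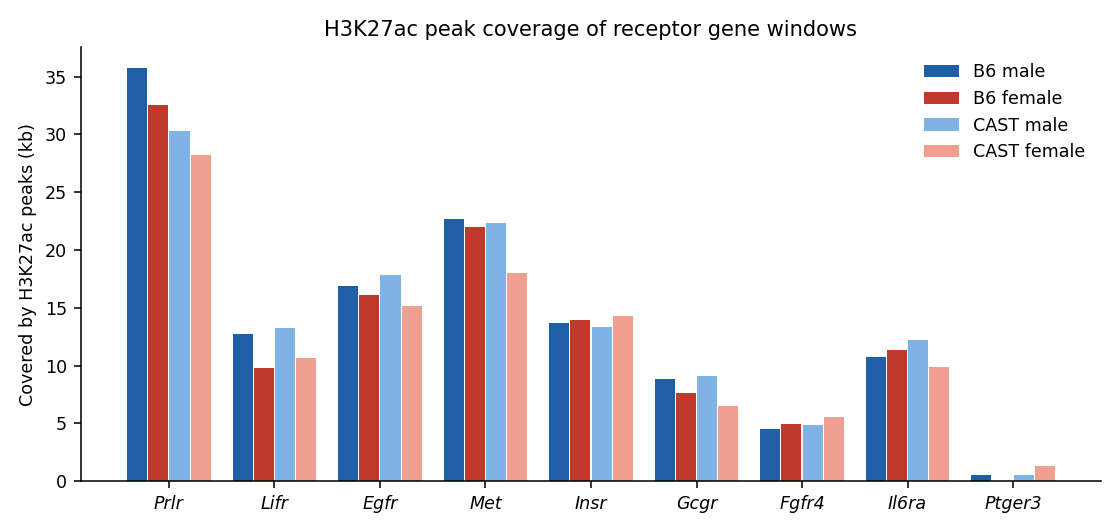
Kilobases of each receptor window (gene body and 10 kb on each side) covered by H3K27ac peaks in the 4 pooled lists, 1 bar per list. Prlr had the widest coverage in every list, between 28194 and 35741 bp, and Ptger3 the narrowest, between 0 and 1345 bp.

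Prlr, Met and Egfr were the most extensively marked. Prlr (chr15:10106993-10303504, plus strand) was covered over 35741 bp in males and 32561 bp in females of B6, and 30276 bp and 28194 bp in those of CAST. These values were at or above percentile 99.6 of all protein-coding genes in each list, in a window of 217 kb. By the share of the window covered, Prlr was at percentiles 85.6 to 91.7 of genes. Its window also takes in the start and part of the body of the neighbouring gene Agxt2. Met (chr6:17413800-17523980, plus strand) was covered over 22727, 21998, 22313 and 18035 bp in the same order. Egfr (chr11:16652206-16818161, plus strand) reached 16855, 16149, 17846 and 15135 bp, but its window is longer, and only 8.14% to 9.60% of it was covered, against 13.9% to 17.5% for Met. Gcgr (chr11:120392013-120400402, plus strand) was the most densely marked. Its short window was covered over 31.2% and 26.9% in male and female B6 and 32.0% and 22.8% in male and female CAST, at or above percentile 98.8 of genes in each list. At the other end, Ptger3 (chr3:157229856-157307722, plus strand) was covered over 0.584%, 0%, 0.592% and 1.37%.

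The remaining receptors lay between these. Insr (chr8:3150922-3279617, minus strand) was covered over 13693 bp in B6 males and 13919 bp in B6 females, and 13329 bp and 14335 bp in CAST males and females. Lifr (chr15:7079559-7147489, plus strand) was covered over 12768, 9764, 13228 and 10700 bp, and both male lists were above both female lists. Il6ra (chr3:89673246-89717084, minus strand) was covered over 10792, 11342, 12243 and 9904 bp. Fgfr4 (chr13:55254001-55270120, plus strand) was covered over 4558, 4964, 4835 and 5576 bp. Both female lists were above both male lists for Fgfr4 and for Insr. None of these sex differences in Lifr, Fgfr4 or Insr reached 1.5-fold, and how many of all genes have lists ordered this way was not counted.

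The question set by the design was whether these windows differ between males and females, and between strains. Covered bases were compared after adding 500 bp, and a difference of 1.5-fold was taken as the limit. In B6, 0 of the 8 receptors with at least 1000 bp in either list passed it. Of all genes counted, 3.25% passed with the male list higher and 2.21% with the female list higher. The largest of the 8 was Lifr, 1.29 times higher in males, followed by Gcgr at 1.15 times. In CAST, 1 of 9 passed, Ptger3, with the female list higher, where the background was 5.46% of genes with the male list higher and 1.12% with the female list higher. Below the limit in CAST were Gcgr, 1.37 times higher in males, Lifr and Met, each 1.23 times higher, and Il6ra, 1.22 times higher. The median log2 ratio of male to female over the receptors was 0.06 in B6 and 0.23 in CAST, and over all genes 0.04 and 0.10.

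Between strains, coverage of most receptors was close. In males 0 of 8 passed the limit, where 7.51% of genes passed with CAST higher and 3.14% with B6 higher. In females 1 of 9 passed, again Ptger3, with 1345 bp in CAST against 0 bp in B6, so that the 500 bp added set the size of this ratio. The background there was 7.47% with CAST higher and 7.45% with B6 higher. Of the other 8 receptors, Prlr had 0.85 times the B6 coverage in CAST males and 0.87 times in CAST females. Met had 0.98 times and 0.82 times, and Lifr 1.03 times and 1.09 times. The median log2 ratio of CAST to B6 was 0.04 in males and -0.09 in females over the receptors, and 0.01 and -0.04 over all genes.

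**Figure D2:**
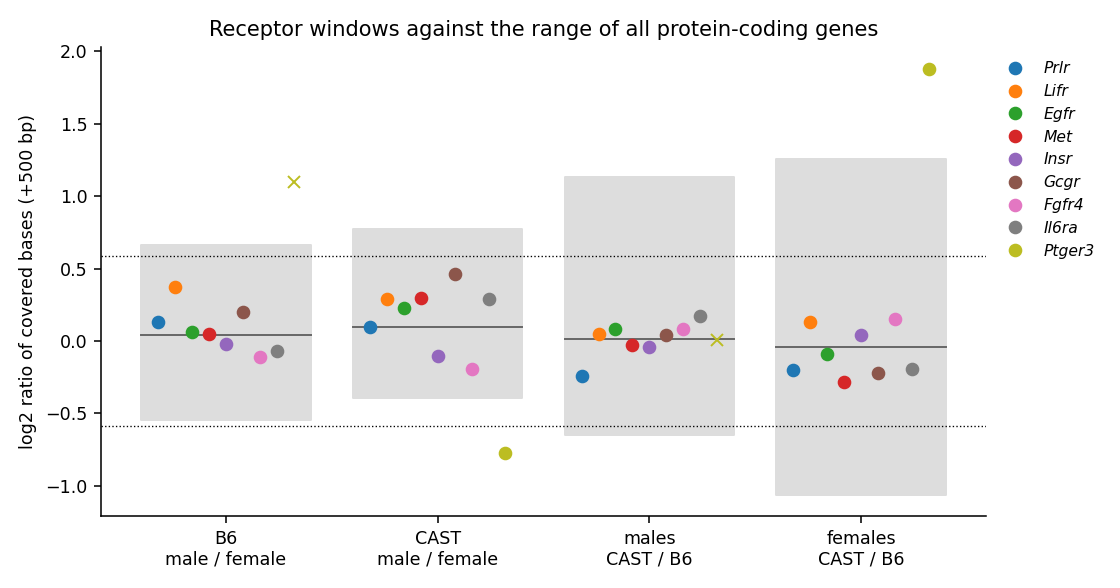
log2 ratio of covered bases (500 bp added) for each receptor in the 4 comparisons of pooled lists. Grey bars span the middle 95% of all protein-coding genes counted, grey lines their median and dotted lines the 1.5-fold limit, with crosses for receptors under 1000 bp in both lists. Ptger3 alone lay outside the dotted lines, and its cross at 1.10 between B6 sexes and its point at 1.88 between females are against 0 bp, so that the 500 bp added set their size.

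Ptger3 was the receptor that differed most. No peak lay at its start in either B6 list. In CAST males a peak of 579 bp with 2.08-fold enrichment over background was called there, and in CAST females a peak of 1345 bp with 4.06-fold enrichment. The region, chr3:157229716-157231060, covered the start of the gene and overlapped coding and UTR exon sequence there. By score the male peak ranked at percentile 8.52 of its list and the female peak at percentile 71.3. The only B6 peaks of the window were 2 small intronic peaks in males, of 242 bp with 2.12-fold and 330 bp with 2.58-fold enrichment, 31.1 and 31.6 kb downstream of the start. No B6 female peak was called anywhere in the window, so the size of any ratio to that list was set by the 500 bp added. The ratio between the B6 sexes was not counted because both lists were under 1000 bp. When only peaks with a −log10 q-value of at least 5 were kept, or each list was shortened to the length of the shortest, the CAST male peak was no longer in its list and the CAST female peak remained.

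The region at the Ptger3 start was 1 of 6 receptor regions called in both CAST lists and in neither B6 list (2.76% of 217, against 6.15% of all regions). Its fold enrichment in CAST males was 0.51 times that in CAST females, and 0.143% of promoter regions called in both CAST lists passed 1.5-fold in this direction. The study itself reports female-biased H3K27ac at this start in CAST and not in B6, from the same livers. The share is therefore a description of a gene already known to differ, not independent support. The 250 bases before the start, chr3:157229606-157229855 of mm9, are shown because a peak was called over this start in CAST and not in B6. They are B6 reference sequence, plus strand, and no base is in capitals because none of the letters searched, described below, was found.
Ptger3 upstream: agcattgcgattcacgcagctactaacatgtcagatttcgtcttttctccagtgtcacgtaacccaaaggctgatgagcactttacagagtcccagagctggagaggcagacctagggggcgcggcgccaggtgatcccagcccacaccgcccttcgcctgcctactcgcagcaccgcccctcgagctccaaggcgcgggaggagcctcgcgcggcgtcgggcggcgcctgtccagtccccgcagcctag
These bases contained 64.0% G and C. The 3 genes whose covered bases over the 4 lists were most like those of Ptger3 were Scaper, Chst8 and 4933403O03Rik. Their distances, computed from log2 covered bases with 500 bp added, were 0.21, 0.26 and 0.30 over 4 lists. Scaper was covered over 738 bp in males and 0 bp in females of B6, and 568 bp and 1313 bp in those of CAST.

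At the promoters of the other 8 receptors, each taken at its furthest upstream protein-coding start, H3K27ac was called in all 4 lists. Fold enrichment at the Insr start was 4.38 and 4.77 in male and female B6 and 5.01 and 4.56 in male and female CAST. The Met start had 4.08, 4.07, 4.13 and 4.27, with 1.05 times between the highest and the lowest list, the narrowest of the 8. The Fgfr4 start had 4.36, 4.90, 4.49 and 3.72, and the Il6ra start 3.70, 4.18, 4.43 and 4.15. The Prlr start gave 4.11, 3.58, 3.83 and 3.48, with the male list higher than the female list in both strains. Enrichment was lower at the Gcgr start, with 2.76, 3.28, 2.96 and 2.96, on the widest receptor region of all, 3838 bp. This Gcgr region also covers part of Gm11789, a non-coding transcript on the opposite strand.

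Just past the Lifr start, enrichment was 4.08 in B6 males and 4.93 in B6 females, and 4.15 and 3.92 in CAST males and females, so the order of the sexes differed between strains. Egfr showed the largest sex difference in B6. Its promoter region, chr11:16651095-16653787, had 2.48-fold enrichment in males and 3.87-fold in females of B6, and 3.03-fold and 3.36-fold in those of CAST. The B6 male value was the lowest of the 4 although B6 males had the most covered bases there, 2547 bp in 1 peak. B6 females had 1923 bp in 2 peaks, and their value is that of the stronger peak. The male to female ratio was 0.64 in B6, the only receptor region of 119 called in both B6 lists that passed 1.5-fold, where 0.564% of all regions and 0.319% of promoter regions passed with females higher. In CAST the female list was also the higher, without passing the limit. The next region, 2.0 kb into the gene, gave 1.53, 1.83, 2.02 and 2.31 in the same order of lists, and its CAST female value was the highest.

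The 250 bases before the Egfr start, chr11:16651956-16652205, plus strand, are shown because this promoter carried that difference.
Egfr upstream: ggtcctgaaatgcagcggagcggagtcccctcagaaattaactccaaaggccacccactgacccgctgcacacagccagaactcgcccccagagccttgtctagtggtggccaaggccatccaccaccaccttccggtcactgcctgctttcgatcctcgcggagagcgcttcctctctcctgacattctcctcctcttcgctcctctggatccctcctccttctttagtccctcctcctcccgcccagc
They contained 60.8% G and C, and none of the letters searched.

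**Figure D3:**
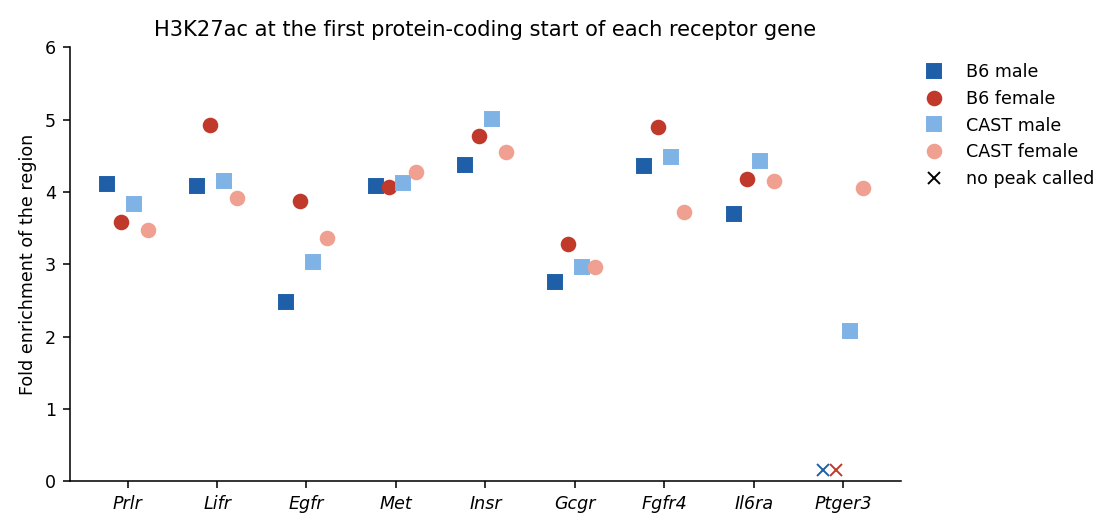
Fold enrichment of the H3K27ac region at the furthest upstream protein-coding start of each receptor gene, 1 symbol per pooled list. Crosses mark lists without a peak. Ptger3 had no B6 peak, and Egfr ran from 2.48 in B6 males to 3.87 in B6 females.

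Prlr has several alternative promoters, and they were not marked alike. Regions covered the starts 46.3 kb and 71.9 kb into the gene in all 4 lists. At the start at 46.3 kb, enrichment was 3.81, 3.42, 3.19 and 2.92 in B6 males, B6 females, CAST males and CAST females, and at the start at 71.9 kb it was 2.88, 2.65, 3.49 and 3.18. The B6 lists were thus higher at the former and the CAST lists at the latter, with males above females within each strain at both. The start at 136.4 kb had 2.71, 2.07 and 2.12 in the first 3 lists and no peak in CAST females. Near the start at 38.3 kb, the only region within 2.5 kb was called in B6 alone, with 2.42-fold enrichment in males and 1.90-fold in females. None of these differences reached 1.5-fold where both lists had a peak.

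Later starts of other receptors were marked less. The Egfr start at 125.9 kb was covered by a region called in males of both strains and in neither female list, with 1.85-fold enrichment in B6 and 2.25-fold in CAST, and another region 2.48 kb away was called in B6 females alone, at 1.99-fold. The Met start at 83.2 kb was covered in all lists, with 2.52, 2.48, 2.38 and 2.36. Near the Lifr start at 24.8 kb, a region 0.354 kb away was called in CAST males alone, at 1.84-fold, and a region 1.95 kb away had 1.51 in B6 males, no peak in B6 females, and 1.61 and 1.93 in CAST. Near the Fgfr4 start at 15.2 kb only CAST females had a peak, of 2.05-fold. The Met start at 71.2 kb and the Insr start at 86.9 kb had no region within 2.5 kb.

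Across the whole Prlr window, 27 of 48 regions (56.2%, against 40.4% of all regions) were called in all 4 lists. A region 172.9 kb from the start of the gene record, chr15:10278949-10280748, had 2.58-fold and 2.44-fold enrichment in male and female B6 and 6.67-fold and 4.63-fold enrichment in male and female CAST. CAST was 2.58 times higher than B6 in males and 1.90 times higher in females, and the highest list exceeded the lowest by 2.74 times. A region 181.5 kb from the start, chr15:10287055-10289995, had 5.30, 5.65, 9.11 and 8.58, or 1.72 and 1.52 times more in CAST. Both regions thus passed 1.5-fold with CAST higher in both sexes. Of all regions called in both lists, 2.82% did so in males and 2.48% in females. A region 189.7 kb from the start went the other way, with 4.40, 4.33, 3.57 and 3.22.

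These regions lie at the far end of the Prlr record. The region at 172.9 kb starts 14 bases past the end of the last protein-coding Prlr transcript and lies in an intron of a single transcript annotated as subject to nonsense-mediated decay. It ends 7.54 kb before the first start of Agxt2, which encodes a mitochondrial aminotransferase. The region at 181.5 kb covers that Agxt2 start, and the region at 189.7 kb lies within the Agxt2 gene body. Which gene they act on was not tested. Around the summit of the region at 172.9 kb, chr15:10280164-10280463, the plus strand of the B6 reference reads as follows, shown because this receptor region differed most between strains among those called in all lists, and none of the letters searched was found.
Prlr at 172.9 kb: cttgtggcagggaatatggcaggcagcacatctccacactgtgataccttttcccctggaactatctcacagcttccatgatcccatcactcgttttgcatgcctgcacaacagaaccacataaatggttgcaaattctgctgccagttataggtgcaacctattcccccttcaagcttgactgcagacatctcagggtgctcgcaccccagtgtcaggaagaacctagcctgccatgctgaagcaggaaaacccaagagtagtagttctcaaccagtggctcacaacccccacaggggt

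**Figure D4:**
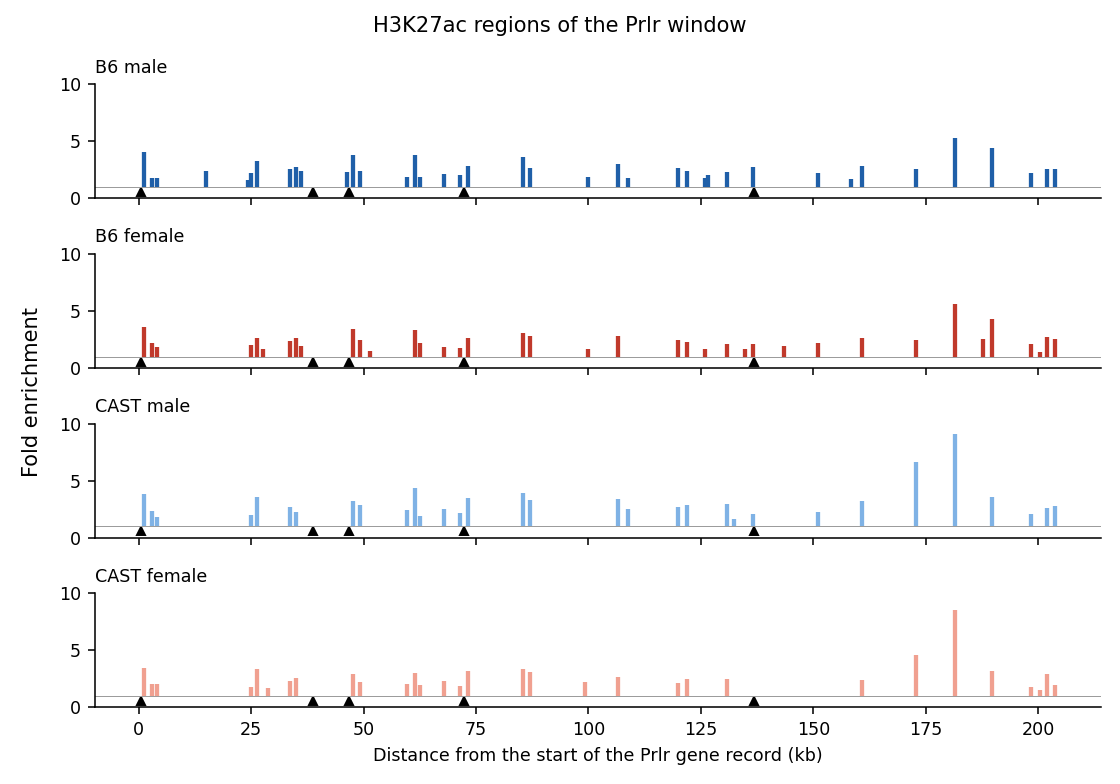
Fold enrichment of every H3K27ac region in the Prlr window by distance of its midpoint from the start of the gene record, 1 panel per pooled list, with bars drawn from 1 (no enrichment) and triangles at protein-coding starts. The bars at 172.9 and 181.5 kb were taller in both CAST lists than in both B6 lists.

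Of the 100 receptor regions called in all 4 lists, the highest list exceeded the lowest by a median of 1.23 times, and the same median over all 48266 such regions was 1.24. Past 1.5 times were 6 receptor regions (6.00%, against 10.4% of all). They were both Prlr regions just described, the Egfr promoter region and its neighbour, and 1 region each in Insr and Met. The Insr region, 67.6 kb into the gene, had 1.54 in B6 males and 1.53 in B6 females, and 1.85 and 2.36 in CAST males and females. In Met, the region 90.7 kb into the gene had 2.75, 2.59, 3.44 and 2.26, so CAST males were 1.52 times higher than CAST females. Another region, in Lifr 21.6 kb into the gene, was called in 3 lists and had 1.58 in B6 males and 2.41 in CAST males and in CAST females. Below the limit, the distal region differing most between the B6 sexes was in Insr 48.4 kb into the gene, with 1.85, 2.5, 2.51 and 2.07, and next were Insr regions at 68.2 kb, with 2.26 in males and 1.75 in females, and at 51.6 kb, with 1.81 and 2.32. Between CAST sexes the Prlr regions at 172.9 kb and 61.4 kb followed the Met region, the latter with 4.35 in males and 3.03 in females. A Met region 27.4 kb into the gene had 2.69 in B6 females and 3.77 in CAST females.

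Counting by comparison, 0 regions with males higher and 1 with females higher passed 1.5-fold of 119 called in both B6 lists, where 0.753% and 0.564% of all regions passed. In CAST it was 1 and 1 of 117, where 1.44% and 0.399% passed. Between strains, 3 of 124 passed with CAST higher in males and 3 of 109 in females, where 2.82% and 2.48% of all regions passed. None passed with B6 higher, where the background was 0.910% in males and 1.82% in females. These shares are of the same order as the background.

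Distal regions of Met and Fgfr4 reached the enrichment of the promoters. Taking the maximum over the 4 lists, the highest Met enrichment lay 105.2 kb into the gene, in an intron, at chr6:17517931-17520134. Enrichment there was 4.15 in males and 3.92 in females of B6, and 5.02 and 5.41 in those of CAST. The highest list was 1.38 times the lowest, under the 1.5-fold limit. In B6 females enrichment there was below the promoter, and the highest value of that list was 4.25, in a region 77.7 kb into the gene. That region had 4.06, 3.95 and 3.50 in B6 males, CAST males and CAST females. The maximum of Fgfr4 over the lists was also in a distal region, chr13:55272553-55274322, downstream of the gene. Values there were 4.94, 4.46, 4.97 and 4.52, and males were above females in both strains. In B6 females the Fgfr4 promoter was higher, and by score the promoter ranked above this region in every list, at percentile 89.9 against 83.2 in B6 males. The widest Met and Insr regions were weaker, with 2.85, 3.37, 3.42 and 3.28 over 2808 bp in Met and 2.21, 1.78, 2.33 and 2.25 over 3008 bp in Insr. In Insr an intronic region 58.3 kb into the gene had 3.73, 3.36, 3.71 and 4.14. The highest value of the Gcgr window, 5.71, 5.70, 5.84 and 5.69 in the 4 lists, belonged to the promoter of the neighbouring gene Fam195b.

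The summits of the Met and Fgfr4 regions are printed because these had the highest enrichment of their genes in any list. The Met window is chr6:17519046-17519345 and the Fgfr4 window chr13:55273178-55273477, both on the plus strand of mm9. Capitals mark GTAAACA, the reverse complement of the FOXA letters.
Met at 105.2 kb: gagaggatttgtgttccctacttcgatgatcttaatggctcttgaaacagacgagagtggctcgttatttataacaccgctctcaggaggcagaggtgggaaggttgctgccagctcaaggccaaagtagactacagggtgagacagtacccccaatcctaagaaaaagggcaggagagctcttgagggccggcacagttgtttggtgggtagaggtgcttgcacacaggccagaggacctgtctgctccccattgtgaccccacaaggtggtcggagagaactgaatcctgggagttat
Fgfr4 downstream: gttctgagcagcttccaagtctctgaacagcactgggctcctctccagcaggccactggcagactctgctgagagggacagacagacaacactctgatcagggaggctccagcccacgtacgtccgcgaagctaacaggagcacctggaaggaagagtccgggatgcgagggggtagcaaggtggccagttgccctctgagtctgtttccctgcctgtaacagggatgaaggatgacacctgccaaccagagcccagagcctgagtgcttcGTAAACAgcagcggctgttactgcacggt
The Met window held none of the letters searched.

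Over all receptor regions, the shares called in a single sex were near those of all regions. In B6, 35 of 182 receptor regions were called in males only and 28 in females only (19.2% and 15.4%, against 17.4% and 17.5% of all regions). With peaks up to 500 bp apart joined there were 20 and 14, and with a −log10 q-value of at least 5 the female-only count was 15. In CAST, 34 and 20 of 171 were called in males only and females only (19.9% and 11.7%, against 21.5% and 14.1%). The CAST female-only count was 13 at that q-value and 31 in 1 kb bins. At promoters, those of neighbouring genes included, 5 of 30 regions called in B6 were male-only and 2 female-only (16.7% and 6.67%, against 6.76% and 7.53% of all promoter regions). In CAST it was 5 and 2 of 29 (17.2% and 6.90%, against 8.76% and 5.66%). At starts of the receptor genes themselves, the counts were 4 and 2 in B6 and 5 and 1 in CAST. The B6 male-only promoter regions ranked from percentile 0.654 to 53.5 of their list, and none lay at a furthest upstream receptor start. So few calls give no direction, and they were not recounted under another promoter definition. Away from promoters the counts were 30 and 26 of 152 in B6 (background 20.2% and 20.1%) and 29 and 18 of 142 in CAST (background 24.7% and 16.2%). Regions called in a single list made up 68 of the 217 (31.3%, against 32.4% of all), and their median percentile by score was 14.9 to 21.9 in the 4 lists. The 100 regions called in all lists (46.1%, against 40.4% of all) had median percentiles of 57.5 to 66.4.

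Lifr had the most uneven split. In B6, 7 of its regions were called in males only and 0 in females only, and in CAST 6 and 0. Male-only regions were 31.8% and 27.3% of all Lifr regions in B6 and CAST, where 13.3% and 17.4% of all regions were male-only, and 13.3% and 11.4% of all regions were female-only. All of these Lifr regions had between 1.36-fold and 2.02-fold enrichment in the male list of that strain, and 1 of them, 60.0 kb into the gene, was male-only in both strains, with 2.0-fold enrichment in B6 males and 1.78-fold in CAST males. The region just past the Lifr start was called in every list, and so was chr15:7116085-7119136, the widest of the gene, which had 2.90, 2.92, 3.45 and 3.42 in B6 males, B6 females, CAST males and CAST females. With only peaks of −log10 q-value of at least 5, the male-only Lifr regions numbered 1 in B6 and 3 in CAST and the female-only ones 0 and 1.

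In Insr the split leaned to females, with 3 regions called in males alone and 6 in females alone in B6, against 1 and 5 in CAST. At a −log10 q-value of at least 5 the B6 counts became 6 and 5, so the B6 direction turned, while in CAST they were 1 and 3. Il6ra had 2 such regions for males and 5 for females in B6 but 3 and 1 in CAST. Egfr, whose 49 regions were the most numerous and mostly weak, had 10 and 8 in B6 and 11 and 8 in CAST. Met had 3 and 3 in B6 and 7 and 1 in CAST. Among the 5 receptors with at least 20 regions, male-only regions outnumbered female-only regions in both strains in Prlr, Lifr and Egfr, as in 33.6% of 928 genes with as many regions. Female-only regions outnumbered male-only ones in both strains in Insr, as in 10.9% of those genes. The minimum of 20 regions was chosen after the values were seen.

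**Figure D5:**
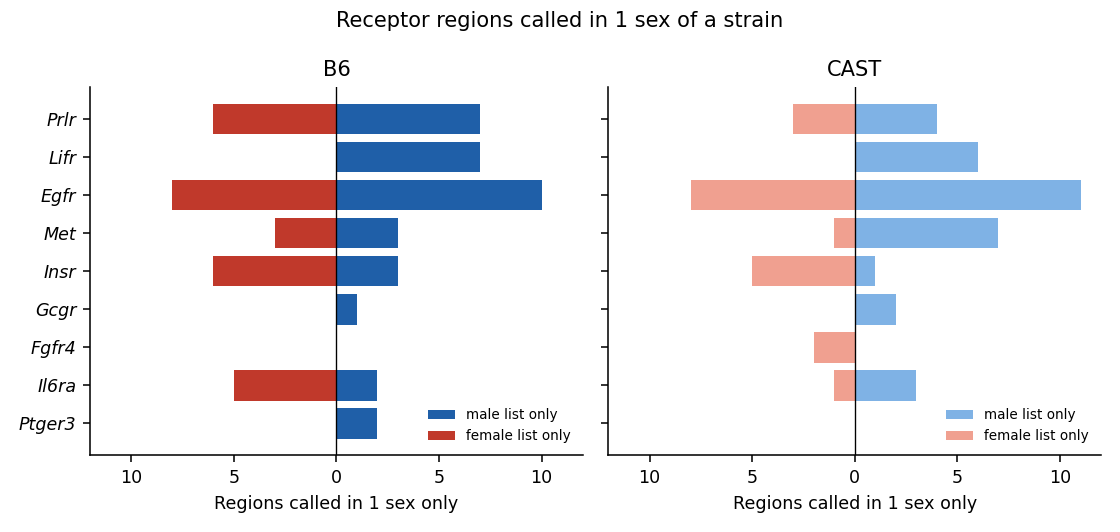
Number of receptor regions called in 1 sex of a strain, male-only to the right and female-only to the left of 0, for B6 and CAST. Lifr had 7 and 6 male-only regions and no female-only region.

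Sex-only calls shared by both strains were few. Male-only in both strains were 7 receptor regions (3.23%, against 2.35% of all regions), of which 4 were in Egfr and 1 each in Prlr, Lifr and Met. The best ranked by mean percentile over the 2 male lists was an intronic Prlr region 108.8 kb into the gene. It had 1.78-fold enrichment in B6 males and 2.52-fold in CAST males. In B6 males alone it was at percentile 20.5, below the Egfr region at 117.3 kb, which was at 34.2. The Met region, 85.6 kb into the gene, had 1.80 and 2.0. The Egfr region 117.3 kb into the gene had 2.08 and 1.78. Female-only in both strains were 3 regions (1.38%, against 1.23%). An Egfr region 26.4 kb into the gene had 1.96-fold enrichment in both female lists, another at 43.4 kb had 1.54 and 1.51, and a region of the Prlr window past the end of that gene, within the gene body of Agxt2, had 1.43 and 1.54.

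The summits of the best ranked region of each kind are printed, the Prlr window being chr15:10215765-10216064 and the Egfr window chr11:16678353-16678652, plus strand of mm9. Capitals mark TTCCTGGAA, a match to the STAT letters at bases 195 to 203 of the Prlr window.
Prlr at 108.8 kb, male-only: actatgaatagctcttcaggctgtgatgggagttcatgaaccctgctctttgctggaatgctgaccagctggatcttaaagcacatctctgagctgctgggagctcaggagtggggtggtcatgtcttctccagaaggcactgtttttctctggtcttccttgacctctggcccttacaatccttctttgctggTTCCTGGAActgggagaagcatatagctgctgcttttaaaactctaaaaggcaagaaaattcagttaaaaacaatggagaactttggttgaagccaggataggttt
Egfr at 26.4 kb, female-only: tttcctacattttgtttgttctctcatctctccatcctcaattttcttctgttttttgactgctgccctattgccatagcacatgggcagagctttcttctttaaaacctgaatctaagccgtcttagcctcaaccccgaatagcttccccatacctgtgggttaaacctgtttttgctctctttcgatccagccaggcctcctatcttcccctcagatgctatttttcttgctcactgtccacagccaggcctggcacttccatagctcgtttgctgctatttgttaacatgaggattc
No match was found in the Egfr window.

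Strain-only regions called in both sexes numbered 7 in B6 (3.23%, against 4.17% of all regions) and 6 in CAST. The B6 count was 4 with peaks up to 500 bp apart joined and 11 in 1 kb bins. Of the B6-only regions, the best ranked was in Insr 94.6 kb into the gene, overlapping a coding exon, with 2.77-fold enrichment in males and 2.75-fold in females. A Lifr region 9.5 kb upstream of the gene had 2.94 and 2.54. Another was the Prlr region near the start at 38.3 kb. Of the CAST-only regions the Ptger3 promoter ranked highest by mean percentile over the 2 CAST lists, though it was at percentile 8.52 in males. Next was an Insr intronic region 12.7 kb into the gene, with 1.76 in males and 2.15 in females. An Egfr intronic region at 90.7 kb followed with 2.15 and 2.04, and in males both ranked above the Ptger3 promoter.

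Short letter strings known from liver transcription factors were searched on both strands of the 300-base window at the summit of every region. They were TTCNNNGAA for STAT factors, TGTTTAC for FOXA, CAAAGTCCA for HNF4A, TTGCNNAA for CEBP and ATTGATT for HNF6, and no match overlapped another in the windows printed. The STAT letters were in 27 of 217 receptor windows (12.4%) and in 8.96% of all region windows, and the FOXA letters in 13 (5.99%) and 4.45%. CEBP letters were in 28 (12.9%, against 11.5%), HNF6 letters in 7 (3.23%, against 2.93%) and HNF4A letters in 1 (0.461%, against 0.567%). Of all 250-base windows before protein-coding starts, 6.52% held the STAT letters, 2.65% FOXA, 0.381% HNF4A, 8.52% CEBP and 2.18% HNF6. A match describes the letters only.

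Among 50 ligands, partner receptors, kinases, transcription factors and inhibitors of these pathways, 48 had at least 1000 bp in some list. In B6, 2 of 48 passed 1.5-fold with males higher and 0 with females higher, against the 3.25% and 2.21% above. In CAST it was 1 and 0, against 5.46% and 1.12%. Fgfr1, another FGF receptor, was the only one to pass in the same direction in both strains, with 8929 bp and 5192 bp in male and female B6 and 7756 bp and 4472 bp in male and female CAST, 1.66 times more in males of each. Between strains 1 passed with CAST higher in males, and in females 1 passed with CAST higher and 1 with B6 higher, each 2.08% of the 48, against 7.51% of all genes with CAST higher in males and 7.47% and 7.45% with CAST and B6 higher in females. Named after their values were seen, these were Ptger2, a prostaglandin E2 receptor, at 1.57 times, Ptger4, another, at 1.85 times, and Fgf21, a fasting-induced hepatic hormone, at 0.63 times. Ptger4 was also the other B6 gene higher in males, at 1.89 times. The shared signalling subunit Il6st was covered over 5043, 4357, 5300 and 3632 bp and passed in no comparison, and the same held for Stat3, Stat5a, Stat5b, Socs2 and Cish. The Fgfr2 record of this annotation spans 3009 kb and holds other genes, so its count is not specific to Fgfr2.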

How the data were processed

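The authors prepared H3K27ac ChIP-seq from 20 livers and 4 input controls. Per the study's methods they merged the 5 livers of a group, aligned unique reads with Bowtie2 (B6 to mm9, CAST to a custom CAST genome, with coordinates converted to mm9), called peaks with MACS2 against input and removed blacklisted regions. For each peak the authors deposited a score, a fold enrichment (a ratio of ChIP signal to background), a −log10 p-value, which was not used here, a −log10 q-value and the offset of the summit. The score was 10 times the −log10 q-value, within 1 unit, for 100% of peaks, and the lowest −log10 q-value of a list was 1.30 to 1.32. Within a list all peak names bear 1 library's code, but the list names and the methods describe merged livers, and this was followed.

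Peaks on 19 autosomes and X were used (Python 3.11.15, pandas 2.3.3, numpy 2.4.6). Gene records and starts came from GENCODE vM1 on NCBIM37, the assembly called mm9, and printed sequences from the same assembly. Peaks overlapping by 1 bp were joined into regions. A region within 2.5 kb of a protein-coding start was a promoter region. A region took the fold enrichment of its highest peak in each list, and percentiles ranked peaks within a list by q-value, then fold enrichment. Covered bases were compared as (bp + 500) over genes with at least 1000 bp in either list, with a limit of 1.5-fold.

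All 9 receptors were described in full. By the rule set, pathway genes were named where they passed the limit in the same direction in both strains or sexes, and for receptors past the limit the 3 most alike genes. Outside this rule, Ptger2, Ptger4 and Fgf21 were named after their values were seen. Il6st, Stat3, Stat5a, Stat5b, Socs2, Cish and Fgfr2 were also named outside it. Regions were named at each coding start, as the widest and the strongest of a gene, as the best ranked sex-only and strain-only regions and as the distal regions differing most. Best ranked means the highest mean percentile over the lists in which the region was called. The members and lists were chosen with earlier results of these data known.

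B6 reads were mapped to the reference strain and CAST reads to another genome, so mapping and strain cannot be told apart. The B6 lists had 5 mitochondrial peaks each and 599 and 579 peak numbers missing in males and females, the CAST lists 0 of both, and no number was missing within a receptor window. The B6 male list had 39 peaks on Y and the other lists 0. Alternatives were list length, a stricter q-value, window, joining distance, 1 kb bins, scaling by list total, other bases added, no minimum and the promoter definition. Scripts were tested on simulated data.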

Additional observations from a re-analysis of the deposited data

Results flagged for a closer look

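Ptger3 coverage was higher in the male list of B6 and in the female list of CAST. In CAST the log2 ratio of male to female covered bases, with 500 bp added, was -0.77, from 579 bp in males and 1345 bp in females. In B6 it was 1.10, from 572 bp in males and 0 bp in females, so the 500 bp added set its size, it is not a fold change, and both lists were under the 1000 bp minimum used for counting. The B6 male bases were intronic and the CAST bases lay at the start of the gene, so the values come from different regions and do not show a reversal at one of them. Each list is a pool of 5 livers and the difference between strains was not tested.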

How the results depend on the processing

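No paired analysis was possible because each list pools the livers of its group and per-liver values were not used here. For the same reason leaving out each liver in turn was not run. A window over protein-coding transcripts was added as an alternative after seeing the data. Of 178 counts recomputed under the alternatives, 153 stayed within 1.5 times of the reported count. Of 324 receptor ratios, 323 kept their side of the 1.5-fold limit and none of those past it changed direction. With no minimum of covered bases, Ptger3 was added in B6, so that 1 receptor passed there, at a log2 ratio of 1.10 that the 500 bp added set, since the female list had 0 bp. With peaks up to 500 bp apart joined, there were 20 B6 male-only, 14 B6 female-only and 4 B6-only regions. With a −log10 q-value of at least 5, female-only regions numbered 15 in B6 and 13 in CAST. In 1 kb bins CAST female-only counts were 31 and B6-only counts 11. With lists shortened to 79818 peaks, or at the stricter q-value, 1 region passed 1.5-fold between CAST sexes in place of 2, since the Ptger3 peak of CAST males was no longer listed. Receptor promoter regions numbered 18 within 1 kb of a start, against 30. Where not given, the cause was not tested.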
